A study of Homo sapiens with 6 samples.

Results

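The transcripts examined here come from 10 genes of the negative feedback on the RAS to ERK kinase pathway. They were taken by gene name from the 58735 genes of the expression table: the phosphatases DUSP1, DUSP4, DUSP5 and DUSP6, the Sprouty genes SPRY2 and SPRY4, the Spred genes SPRED1 and SPRED2, and the ERK-responsive genes IER3 and PHLDA1. RNA was sequenced from Hep-G2, an established human liver cancer line, to find what changes when calmegin, a chaperone of the endoplasmic reticulum encoded by CLGN, is depleted. The sh-CLGN libraries (n = 3) came from Hep-G2 cells with a lentiviral short hairpin RNA against CLGN, and the sh-NC libraries (n = 3) from Hep-G2 cells with a negative control hairpin. Cells of both groups were transduced with lentivirus and selected with puromycin. Each group holds 1 hairpin, so the loss of CLGN, another effect of the hairpin and a difference between the transduced cultures cannot be told apart. The labels do not say that replicates were separate cultures, so p-values measure the spread between these libraries, which may be technical.

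ERK is the last kinase of a cascade that carries growth factor signals from receptors through RAS, RAF and MEK to the nucleus. Active ERK raises transcription of genes whose products switch the pathway off again, and their short-lived messengers are widely used as readouts of pathway output. Dual-specificity phosphatases (DUSP) remove phosphate from MAP kinases, while Sprouty and Spred proteins act upstream, between the receptor and RAF. IER3 is an exception to the name of the set, since this ERK substrate is known for prolonging ERK activity as well as for restraining other signals. PHLDA1, a pleckstrin homology-like protein induced by growth factors, is a marker of ERK output with less defined feedback activity.

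The unit of expression was FPKM, which divides fragments by gene length and by a library size, so levels of different genes can be compared per length. The library sizes implied by the deposited values were 0.933 to 0.953 of the read totals for sh-NC and 1.07 to 1.08 for sh-CLGN, so changes are lower on this scale than on read totals. The reads recovered from these values numbered 14955816 to 16244639 per library. CLGN was lower in 3 of 3 sh-CLGN libraries, at 37.8% of its sh-NC level. Hepatocyte markers were abundant in both groups (summed level 6785 to 7014 FPKM for sh-NC, 6729 to 7146 for sh-CLGN). Of these 8 markers, 2 were higher and 5 lower in sh-CLGN, against 26.7% and 39.0% of all tested genes. The near-equal sums hide opposite moves, with AFP at 142%, ALB at 53.6% and TF at 32.2% of the sh-NC level. The 8 fibroblast markers summed to 3.04 to 3.38 FPKM in the sh-NC libraries and 6.84 to 7.54 in the sh-CLGN libraries. DCN, THY1 and FAP were under 0.1 FPKM in every library. Of the 8, 3 were tested and 3 were higher, against 26.7% of all tested genes. LUM and COL3A1 reached 1 FPKM only in sh-CLGN libraries, so the filter of at least 1 FPKM in 3 libraries could admit them only as higher. Endothelial markers summed to 3.33 to 3.67 and 2.38 to 2.65 FPKM, with VWF and KDR under 0.1, and blood cell markers to 1.20 to 1.48 and 0.471 to 0.780 FPKM, with PTPRC, CD3E, CD68 and HBB under 0.1. The part of these markers in the results below was not tested. In bulk RNA, fewer cells of a type and less RNA per cell cannot be told apart.

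The feedback genes were lower in sh-CLGN, with SPRED1 as the exception. All 10 passed the filter of at least 1 FPKM in at least 3 libraries, and 9 were lower and 1 was higher at a limma adjusted p of at most 0.05. Differences were common in these libraries: of the 13074 genes tested, 65.8% passed in either direction, 39.0% lower and 26.7% higher. Rescaling to TPM gave 22.3% lower and 31.3% higher of 17877 genes, and scaling by read totals 25.9% and 38.3% of 13163. The filter was applied again after each rescaling, so the tested genes differed. With a log2 change of at least 1 required as well, DUSP1, DUSP6, SPRY4 and IER3 passed as lower and 0 members as higher, against 3.19% of tested genes lower and 3.09% higher. The 3 libraries of sh-CLGN lay wholly below those of sh-NC in 9 members and wholly above in 1, where 41.5% and 28.7% of all tested genes showed those patterns. The median log2 change was -0.87 over the 10 genes and -0.08 over all tested genes, and 8 of the 10 were lower by at least 0.5. Falls of that size were common: the smallest of the 8, SPRED2 at -0.58, ranked 1782 from the lowest of the 13074 tested genes. Log2 changes are differences on the log2(FPKM + 1) scale, which understates the change of genes with low levels such as DUSP4 and SPRED1.

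**Figure D1:**
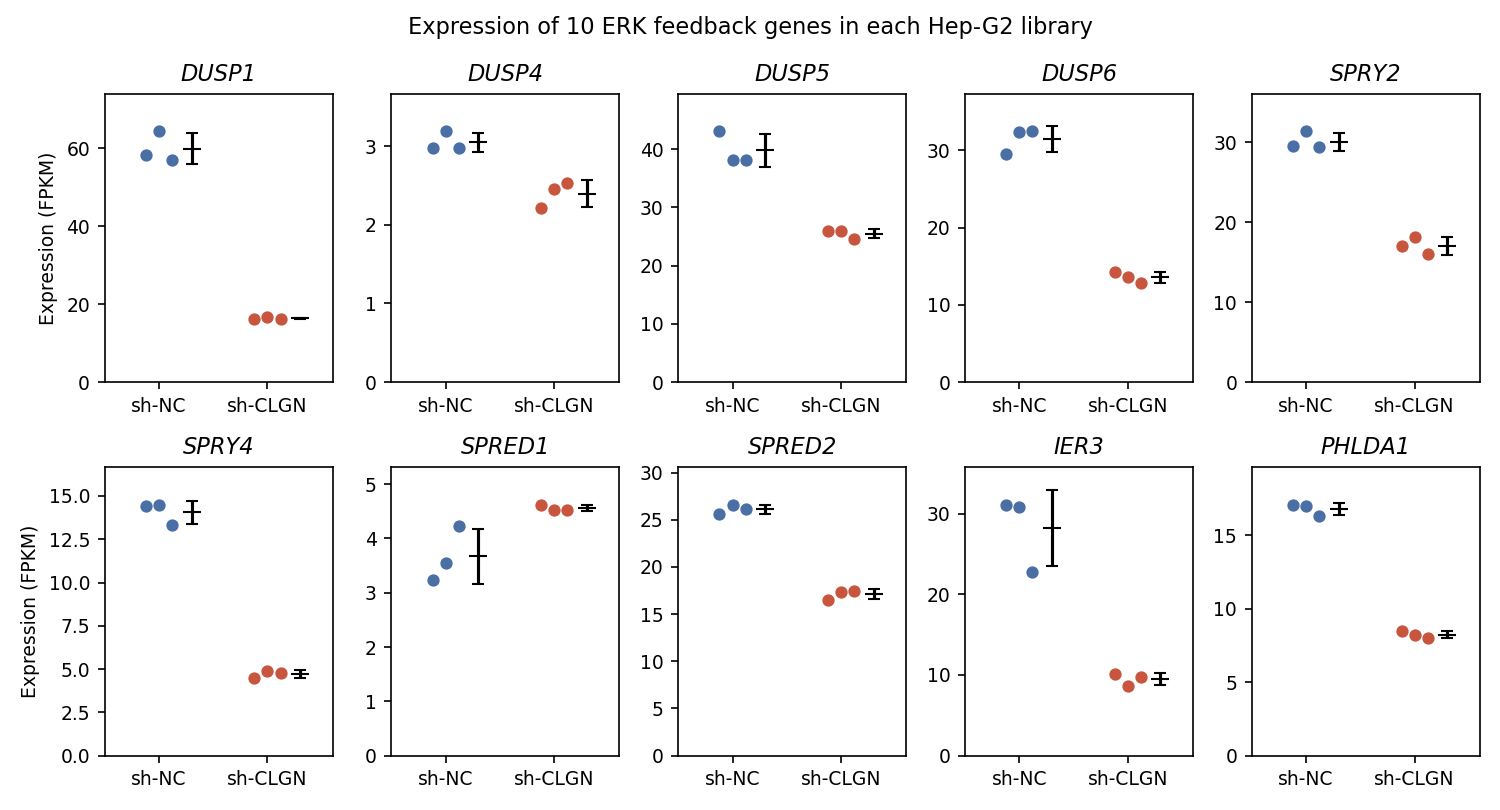
Expression (FPKM, axes from 0) of each of the 10 genes in the 3 sh-NC and 3 sh-CLGN libraries. Points are libraries, and the bar beside them is the mean with 1 SD. The libraries of the groups do not overlap in any panel, and SPRED1 is the panel in which the sh-CLGN libraries lie above.

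Among the phosphatases, DUSP1 showed the largest change of the 10 genes. DUSP1 (ENSG00000120129, chromosome 5, 172768090 to 172771195, minus strand, GRCh38) encodes an inducible nuclear phosphatase that acts on p38 and JNK as well as ERK. In the order of replicates 1 to 3, it stood at 58.2, 64.4 and 57.1 FPKM with sh-NC against 16.3, 16.6 and 16.2 FPKM with sh-CLGN, on 529 to 1897 reads a library. The sh-CLGN libraries agreed closely with each other, and the lowest sh-NC library was well above all of them. Between the group means, 59.9 ± 3.90 and 16.4 ± 0.170 FPKM (SD, n = 3), it fell 3.66-fold. On the log2 scale the change was -1.81 (SE 0.056, 95% confidence interval -1.94 to -1.68, limma adjusted p = 7.36e-07), which ranked 21 from the lowest among all tested genes. DUSP1 went from the most abundant of the 10 messengers in sh-NC to the level of SPRY2 and SPRED2 in sh-CLGN.

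The promoter of DUSP1 is shown because this gene moved most, and those of SPRY4 and SPRED1 follow below as a member that fell and the member that rose. Promoters are RefSeq entries on GRCh38.p14, from 250 bases before to 50 bases after the start, written 5′ to 3′ on the gene's strand. They were searched on both strands for TGACGTCA (the cyclic AMP response element, CRE), its shorter form TGACG, the AP-1 site TGANTCA, the ETS site CCGGAA, the CArG box and TATAAA, and matches are in capitals. The short form lies within the CRE on both strands, so each CRE is also counted there once per strand. The GC box GGGCGG was searched as well and is not capitalized. The DUSP1 entry lies at chr5:172771146-172771445 on the minus strand.
DUSP1: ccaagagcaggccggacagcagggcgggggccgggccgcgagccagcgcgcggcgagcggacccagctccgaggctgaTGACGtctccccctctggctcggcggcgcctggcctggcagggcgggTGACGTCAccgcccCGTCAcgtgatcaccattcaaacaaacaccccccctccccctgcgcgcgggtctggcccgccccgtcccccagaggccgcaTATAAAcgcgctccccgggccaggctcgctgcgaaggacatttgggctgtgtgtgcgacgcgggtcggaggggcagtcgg
It held a full CRE at -125, a motif of 1.85% of the 35116 promoters searched, and 4 matches to TGACG, present in 24.6%. It also held TATAAA at -30, which 11.5% of promoters hold. A match is a description of the letters only and does not show that a factor was bound in these cells.

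DUSP6, DUSP5 and DUSP4 fell to different degrees. DUSP6 (ENSG00000139318, chromosome 12, 89347232 to 89353271, minus strand), the cytoplasmic phosphatase selective for ERK, had 29.6, 32.4 and 32.5 FPKM in the sh-NC libraries and 14.3, 13.6 and 12.8 FPKM in the sh-CLGN libraries. Its mean fell from 31.5 ± 1.65 to 13.5 ± 0.722 FPKM (SD, n = 3), a log2 change of -1.16 (SE 0.060, 95% confidence interval -1.30 to -1.02, limma adjusted p = 4.25e-06). Every sh-CLGN library was below every sh-NC library, and the change stayed past the fold threshold except under quantile normalization (-0.93) and scaling by read totals (-0.98). DUSP5 (ENSG00000138166, chromosome 10, 110497838 to 110511544, plus strand), a nuclear phosphatase that binds ERK, had 43.1, 38.2 and 38.1 FPKM in sh-NC and 25.9, 25.9 and 24.6 FPKM in sh-CLGN. The fall of DUSP5 was smaller, with 64.0% of the sh-NC level left (log2 change -0.62, SE 0.061, limma adjusted p = 6.59e-05).

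DUSP4 (ENSG00000120875, chromosome 8, 29333064 to 29350668, minus strand), another inducible nuclear phosphatase, was the least abundant of the 10 in both groups. It had 2.98, 3.19 and 2.98 FPKM in the sh-NC libraries and 2.21, 2.45 and 2.53 FPKM in the sh-CLGN libraries. The groups did not overlap, but the gap between the nearest libraries was small. DUSP4 fell from a mean of 3.05 ± 0.120 to 2.40 ± 0.166 FPKM (SD, n = 3), a log2 change of -0.26 (SE 0.071, 95% confidence interval -0.42 to -0.09, limma adjusted p = 0.0132). That call was lost after GC correction (-0.08, adjusted p = 0.293), under TPM (-0.20, 0.109) and read totals (-0.11, 0.194), and without sh-CLGN replicate 1 (-0.21, 0.0582). Tested genes in the same decile of GC content as DUSP4 had a median log2 change of -0.21.

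The unequal falls changed the makeup of the phosphatase messengers. The 4 genes together summed to 134, 138 and 131 FPKM in the sh-NC libraries and to 58.7, 58.4 and 56.1 FPKM in the sh-CLGN libraries, which is 43.0% of the sh-NC mean. DUSP1 made up 43.5 to 46.6% of that sum with sh-NC but 27.8 to 28.9% with sh-CLGN. DUSP5 held 27.7 to 32.2% of it with sh-NC and 43.8 to 44.3% with sh-CLGN, so that it replaced DUSP1 as the largest component, although its own level was lower. DUSP6 had shares of 23.5% ± 1.39 (sh-NC) and 23.4% ± 0.753 (sh-CLGN; SD, n = 3), with overlapping libraries. The ratio of DUSP1 to DUSP5, which does not depend on the scaling of libraries, went from 1.51 ± 0.167 to 0.643 ± 0.0157 (SD, n = 3). The libraries did not overlap in this ratio, for which the two-sided exact permutation test gave p = 0.1, the smallest that 3 against 3 libraries allow.

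**Figure D2:**
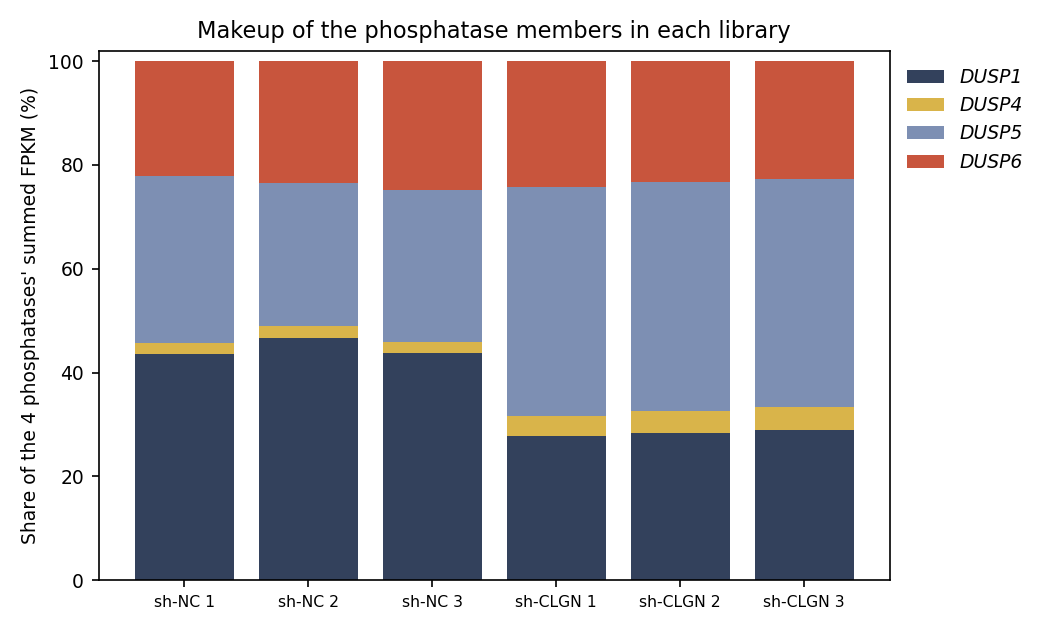
Share of each phosphatase (percent of the summed FPKM of DUSP1, DUSP4, DUSP5 and DUSP6) in each of the 6 libraries, as stacked bars from 0. The DUSP1 part shrinks from 44.6% to 28.3% on average and the DUSP5 part grows from 29.7% to 44.1%, while the DUSP6 part stays near 23.5%.

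Both Sprouty members fell, SPRY4 more than SPRY2. Sprouty proteins are membrane-associated adaptors that dampen signalling from receptor tyrosine kinases. SPRY4 (ENSG00000187678, chromosome 5, 142310427 to 142326455, minus strand) had 14.4, 14.5 and 13.3 FPKM in the sh-NC libraries and 4.47, 4.89 and 4.79 FPKM in the sh-CLGN libraries. Its mean went from 14.0 ± 0.656 to 4.72 ± 0.218 FPKM (SD, n = 3), a 2.98-fold fall (log2 change -1.40, SE 0.059, 95% confidence interval -1.53 to -1.26, limma adjusted p = 2.07e-06). SPRY2 (ENSG00000136158, chromosome 13, 80335976 to 80340951, minus strand) had 29.5, 31.4 and 29.4 FPKM in sh-NC and 17.0, 18.2 and 16.0 FPKM in sh-CLGN. All sh-CLGN libraries of both genes lay below all sh-NC libraries. SPRY2 kept 56.6% of its sh-NC level (log2 change -0.79, SE 0.059, limma adjusted p = 1.99e-05). The ratio of SPRY2 to SPRY4 was 2.05, 2.18 and 2.21 with sh-NC against 3.80, 3.72 and 3.34 with sh-CLGN, without overlap (two-sided exact permutation p = 0.1, the smallest possible here). The SPRY4 promoter entry lies at chr5:142324198-142324497 on the minus strand.
SPRY4: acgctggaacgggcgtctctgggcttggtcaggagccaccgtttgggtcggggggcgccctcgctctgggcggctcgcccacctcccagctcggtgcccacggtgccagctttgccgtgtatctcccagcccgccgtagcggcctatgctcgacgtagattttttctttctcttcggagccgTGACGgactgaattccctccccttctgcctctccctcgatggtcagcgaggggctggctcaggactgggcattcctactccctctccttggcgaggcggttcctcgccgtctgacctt
It held TGACG at -68 and none of the other capitalized motifs.

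The Spred members moved in opposite directions. Spred proteins recruit neurofibromin, the RAS-inactivating product of NF1, to the membrane. SPRED2 (ENSG00000198369, chromosome 2, 65310851 to 65432637, minus strand) had 25.6, 26.6 and 26.1 FPKM in the sh-NC libraries and 16.5, 17.3 and 17.5 FPKM in the sh-CLGN libraries. Its mean fell from 26.1 ± 0.516 to 17.1 ± 0.553 FPKM (SD, n = 3), a log2 change of -0.58 (SE 0.048, limma adjusted p = 2.82e-05). SPRED1 (ENSG00000166068, chromosome 15, 38252326 to 38357249, plus strand) had 3.23, 3.55 and 4.22 FPKM in sh-NC and 4.62, 4.53 and 4.53 FPKM in sh-CLGN. The spread of SPRED1 was larger in sh-NC, where replicate 3 came close to the sh-CLGN libraries. The mean rose from 3.66 ± 0.505 to 4.56 ± 0.0556 FPKM (SD, n = 3), a log2 change of 0.26 (SE 0.084, 95% confidence interval 0.06 to 0.45, limma adjusted p = 0.0265).

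The SPRED1 call did not hold under several settings, though its direction did under all that were run. It was lost after GC correction (0.10, limma adjusted p = 0.174) and without a filter (0.26, 0.0725). It was also lost without sh-NC replicate 1 (0.19, 0.0835) or 2 (0.24, 0.0683), and without sh-CLGN replicate 1 (0.25, 0.0706), 2 (0.26, 0.0627) or 3 (0.26, 0.0590). Without sh-NC replicate 3 it stood at 0.34 (adjusted p = 0.00289). SPRED1 had the lowest transcript GC content of the 10 genes, 38.9%, and tested genes of the same GC decile had a median log2 change of 0.12. The ratio of SPRED2 to SPRED1 within each library was 7.92, 7.50 and 6.20 with sh-NC against 3.56, 3.83 and 3.86 with sh-CLGN, without overlap (two-sided exact permutation p = 0.1, the smallest possible here). The SPRED1 promoter entry lies at chr15:38252586-38252885 on the plus strand.
SPRED1: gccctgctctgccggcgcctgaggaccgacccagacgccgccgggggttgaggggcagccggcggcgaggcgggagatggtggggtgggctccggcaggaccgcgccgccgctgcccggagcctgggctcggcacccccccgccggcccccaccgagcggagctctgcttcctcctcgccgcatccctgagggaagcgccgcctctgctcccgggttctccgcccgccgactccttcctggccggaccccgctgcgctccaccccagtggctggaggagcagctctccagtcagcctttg
This sequence held none of the capitalized motifs, and 76.3% of its bases were G or C against 65.0% in SPRY4 and 73.3% in DUSP1.

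IER3 and PHLDA1, the ERK-responsive members outside the DUSP, Sprouty and Spred families, were lower in sh-CLGN. IER3 (ENSG00000137331, chromosome 6, 30743199 to 30744554, minus strand) had 31.1, 30.8 and 22.8 FPKM in the sh-NC libraries and 10.1, 8.64 and 9.77 FPKM in the sh-CLGN libraries. Replicate 3 of sh-NC was below the other two and still above every sh-CLGN library. IER3 fell from a mean of 28.2 ± 4.69 to 9.50 ± 0.762 FPKM (SD, n = 3), a log2 change of -1.47 (SE 0.118, 95% confidence interval -1.74 to -1.19, limma adjusted p = 2.73e-05). This interval was the widest of the 10, and leaving out a library moved the value between -1.61 and -1.39. IER3 was also the shortest gene, with 1356 bases and 192 to 610 reads per library. PHLDA1 (ENSG00000139289, chromosome 12, 76025447 to 76033932, minus strand) had 17.1, 17.0 and 16.3 FPKM in sh-NC and 8.52, 8.22 and 8.0 FPKM in sh-CLGN, with no overlap. It kept 49.1% of its sh-NC level, and its log2 change of -0.95 (SE 0.051, limma adjusted p = 4.90e-06) lay just short of the fold threshold, which it passed with a pseudocount of 0.1 (-1.02) and with voom (-1.03).

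**Figure D3:**
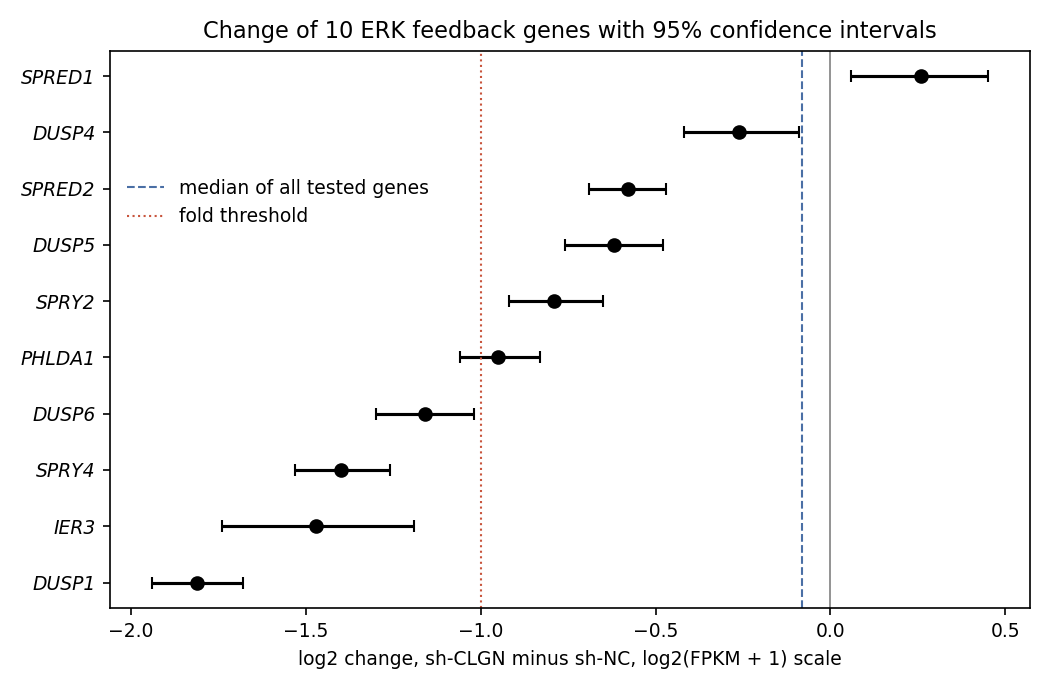
Log2 change between sh-CLGN and sh-NC, log2(FPKM + 1) scale, with 95% confidence intervals from limma (n = 3 libraries a group), ordered by size. The dashed line is the median of all tested genes (-0.08) and the dotted line the fold threshold of -1. Intervals run from -1.94 to -1.68 for DUSP1 up to 0.06 to 0.45 for SPRED1.

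The order of levels among the 10 genes differed between the groups. In sh-NC, DUSP1 (59.9 FPKM on average) was followed by DUSP5 (39.8), and the libraries of these genes did not overlap with each other or with the next gene. DUSP6, SPRY2, IER3 and SPRED2 followed, from 31.5 down to 26.1 FPKM, and neighbours in that run overlapped. PHLDA1, SPRY4, SPRED1 and DUSP4 came last and were separated from one another. In sh-CLGN, DUSP5 led with 25.5 FPKM, ahead of SPRED2, SPRY2 and DUSP1, which overlapped between 16.0 and 18.2 FPKM. SPRY4 and SPRED1, 14.0 and 3.66 FPKM in sh-NC, overlapped in sh-CLGN at 4.72 and 4.56 FPKM. The 10 genes summed to 253 ± 9.73 FPKM with sh-NC and to 119 ± 1.92 FPKM with sh-CLGN (SD, n = 3), or 47.0% of the sh-NC mean.

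Calls of the other members did not depend on the settings tried. DUSP1, DUSP5, DUSP6, SPRY2, SPRY4, SPRED2, IER3 and PHLDA1 stayed lower at adjusted p in each of 12 alternative settings and with each of the 6 libraries left out. TPM and read totals moved the median of all tested genes up by 0.20 and 0.17, respectively. Filtering after the rescaling left 17877 and 13163 tested genes in place of 13074, so these shifts mix scaling with a change of genes. Relative to the median of all tested genes, DUSP1 was at -1.73 as reported, at -1.85 under TPM and at -1.71 under read totals, and DUSP4 was at -0.18, -0.33 and -0.20. For SPRED1 the corresponding values were 0.34, 0.29 and 0.33. Quantile normalization moved DUSP5 from -0.62 to -0.35 and SPRED2 from -0.58 to -0.34, and the GC correction moved DUSP5 to -0.39, DUSP1 to -1.58 and IER3 to -1.22. Scaling by read totals took DUSP5 to -0.43.

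**Figure D4:**
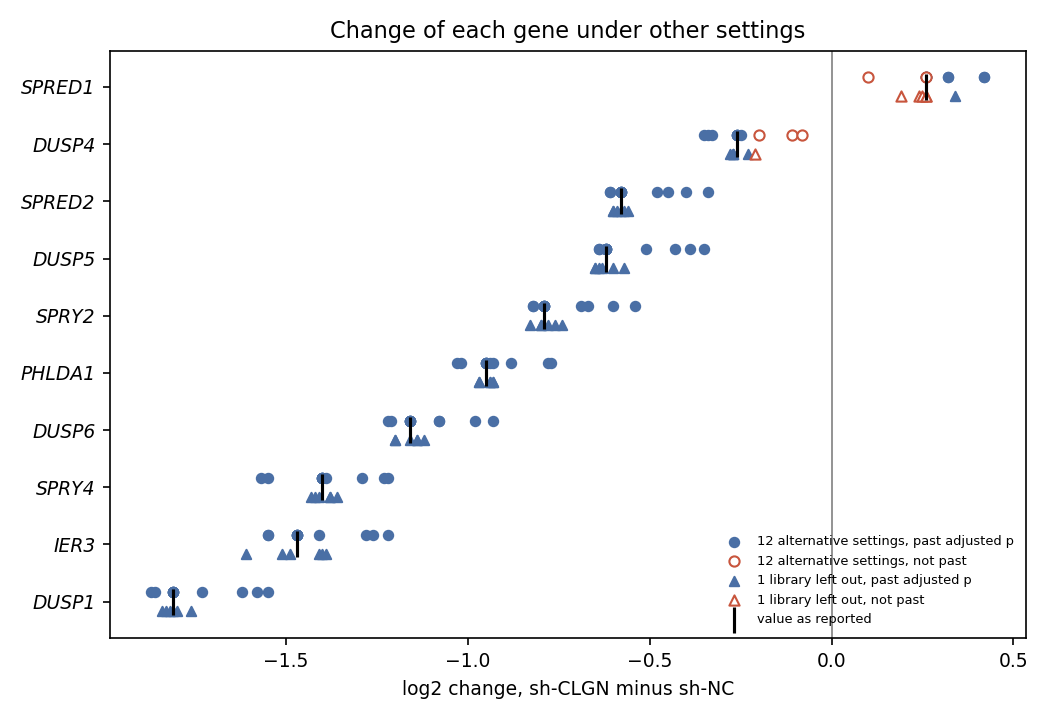
Log2 change of each gene under 12 alternative settings (circles) and with each of 6 libraries left out (triangles), beside the value as reported (vertical mark). Open symbols did not pass an adjusted p of 0.05. Open symbols occur for SPRED1 and DUSP4, and no symbol crosses 0.

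Sequence features of the messengers were compared next, because transcripts of this class often carry AU-rich elements in the 3′ untranslated region (UTR) that shorten their life. The pentamer ATTTA was present in the annotated 3′ UTR of 73.8% of 10880 tested genes, at a median of 1.69 per kilobase. Among the members it was absent from DUSP5 and present in the other 9, from 0.495 per kilobase in DUSP6 to 5.95 in DUSP1 and 6.64 in IER3. SPRED1, the member that rose, had 24 copies, or 4.30 per kilobase. The longer nonamer TTATTTATT, found in 9.08% of 3′ UTRs, occurred in 3 members, 2 times in DUSP1 and 1 time each in PHLDA1 and DUSP4. The matches in the messengers of DUSP1 and PHLDA1 are shown with 10 bases on either side, nonamer in capitals, from GENCODE 29 transcripts.
DUSP1 match 1: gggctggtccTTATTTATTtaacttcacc
DUSP1 match 2: agaatataccTTATTTATTtttgtgtagg
PHLDA1: tgatttatgaTTATTTATTagtttttttt
The members with the nonamer included the largest fall (DUSP1, -1.81) and the smallest (DUSP4, -0.26).

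The same UTRs were searched for sites that the guide strand of the hairpin could pair with. The target of the sh-CLGN hairpin is shown with the site for guide positions 2 to 8 in capitals, positions counted from 1 at the guide's 5′ end.
sh-CLGN target: cgacatatgtaTACCACAa
The site TACCACA was present in 9.75% of tested genes and, of the 10 members, in SPRED2. The windows for guide positions 3 to 9 (ATACCAC, in 7.33% of genes) and 1 to 7 (ACCACAA, in 10.5%) overlap it, and occurred in DUSP4 and in SPRY4, SPRED2 and IER3, respectively, with 1 match each. The SPRED2 site is shown in the same way.
SPRED2: aacaaacttgTACCACAaaacaatatc
DUSP1, DUSP5, DUSP6, SPRY2, SPRED1 and PHLDA1 had 0 matches to these 3 windows in the transcripts searched. Log2 changes were -0.58 for SPRED2, -1.40 for SPRY4, -1.47 for IER3 and -0.26 for DUSP4. Members without a match ranged from -1.81 (DUSP1) to 0.26 (SPRED1). The part of such sites in the change of any member was not tested.

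Promoter entries were found for 7 of the 10 genes, with 10 entries in all, and DUSP4, DUSP5 and IER3 had none in the table. The CRE occurred in 1 entry, that of DUSP1. TGACG occurred in 4, belonging to DUSP1, SPRY2, SPRY4 and SPRED2. An ETS site, held by 17.2% of all promoters, was in 2 entries, of SPRY2 and PHLDA1. The AP-1 site, held by 7.71%, was in 1 entry of SPRED2, and the CArG box, held by 1.29%, in 0 of the 10. The GC box was in 7 entries against 45.0% of all promoters. The DUSP6 entry held none of the motifs searched, so none was shared by all members that fell.

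To place the 10 genes in their pathway, related genes were counted from lists. Of 5 other MAP kinase phosphatases tested, 4 were lower and 0 higher, against 39.0% and 26.7% of all tested genes. Their median log2 change was -0.84. DUSP9, an ERK-directed phosphatase, was the most abundant of the MAP kinase phosphatases tested and fell from 285 ± 24.7 to 119 ± 2.11 FPKM (SD, n = 3; log2 change -1.26, SE 0.067, limma adjusted p = 4.83e-06). DUSP8, directed at JNK and p38, fell from 10.2 ± 1.26 to 3.67 ± 0.672 FPKM (-1.27, SE 0.120, adjusted p = 5.63e-05). DUSP10 was at 3.92 ± 0.552 and 3.82 ± 0.271 FPKM and did not pass (adjusted p = 0.840), and DUSP2 failed the filter.

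Other feedback regulators of receptors and RAS were mixed, with 4 of 8 tested lower, 1 higher and a median of -0.15, against 39.0% lower and 26.7% higher over all tested genes. TPM, read totals and the fit without sh-CLGN replicate 1 each left 2 of them lower, and the median turned to 0.03 under read totals. ERRFI1, which binds and inhibits the EGF receptor, fell from 169 ± 3.12 to 48.5 ± 0.646 FPKM (SD, n = 3; log2 change -1.78, SE 0.042, limma adjusted p = 3.01e-07), about as far as DUSP1. SPRY1, the remaining tested Sprouty, fell by 0.59 (SE 0.057, adjusted p = 6.55e-05). RASA2, a RAS GTPase-activating protein, rose by 0.43 (SE 0.115, adjusted p = 0.0113). NF1, the partner of the Spred proteins, was at 3.23 ± 0.334 and 3.13 ± 0.364 FPKM and did not pass (adjusted p = 0.773). PEBP1 was among those lower (-0.17), and its direction turned under quantile normalization, read totals and GC correction.

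In the RAS to ERK cascade itself, 11 of 18 tested genes were lower and 6 higher, with a median of -0.23 and 0 past both thresholds, where 39.0% and 26.7% of all tested genes were lower and higher. Scaling by read totals gave 7 lower and 6 higher with a median of -0.04, TPM 8 and 6 (-0.11), quantile normalization 8 and 6 (-0.09) and GC correction 8 and 5 (-0.09). The adaptors SHC1 (-0.99, SE 0.050, limma adjusted p = 3.89e-06) and GRB2 (-0.60, SE 0.048, adjusted p = 2.74e-05) had the smallest adjusted p. NRAS, named after its values were seen, rose most, by 0.72 (SE 0.077, adjusted p = 1.12e-04). MAP2K1 (-0.19, adjusted p = 0.00431) and MAP2K2 (-0.27, adjusted p = 0.0428), which encode the MEK kinases, were among those lower, and their direction turned under quantile normalization.

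Of 15 listed transcription factors and other genes that ERK activity raises, 10 were tested. All 10 were lower, with a median of -0.86, against 39.0% of all tested genes. The count lower was 9 of 10 under quantile normalization, 11 of 12 under TPM and under the mean filter of 0.1 FPKM, and 11 of 14 without a filter. EGR2, EGR3, FOSB, FOSL1 and EPHA4 failed the filter. FOS reached 1 FPKM only in sh-NC libraries, so the filter could admit it only as lower. EGR1, an immediate early transcription factor, changed by -2.61 (SE 0.094, limma adjusted p = 1.32e-06), JUNB by -1.42 (SE 0.102, adjusted p = 1.57e-05) and ETV4, an ETS factor, by -1.08 (SE 0.049, adjusted p = 2.60e-06). These lists were written with earlier results of these data known, so their counts are not independent support. Among p38 and JNK kinases and their activators, 4 of 9 tested genes were lower and 0 higher, against 39.0% and 26.7% of all tested genes. The split was 6 lower and 2 higher after GC correction, 6 and 1 under quantile normalization, 4 and 1 under TPM and without sh-NC replicate 1, and 3 and 1 under read totals. MAPK14, which encodes the p38 alpha kinase, fell from 17.9 ± 0.840 to 8.24 ± 0.455 FPKM (-1.03, SE 0.060, adjusted p = 6.23e-06). Of 6 genes for proteins that bind AU-rich elements, 5 were lower and 1 higher, against the same 39.0% and 26.7%. These counts were 4 and 1 under quantile normalization, and 5 and 0 without sh-CLGN replicate 2 or 3. ZFP36L2, which promotes decay, was at -1.18 (SE 0.065, adjusted p = 5.58e-06).

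**Figure D5:**
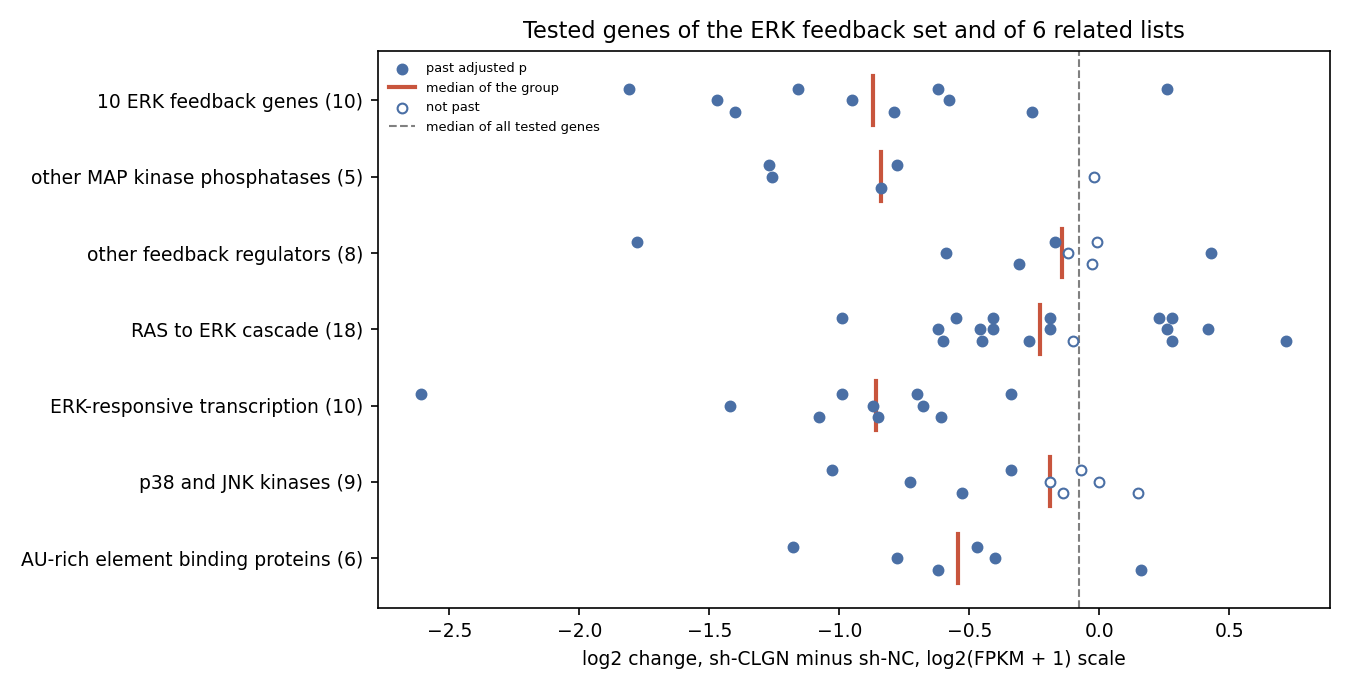
Log2 change (log2(FPKM + 1) scale) of each tested gene in the set of 10 and in 6 related lists, with the number tested in brackets. Filled points passed a limma adjusted p of 0.05, short vertical bars are group medians, and the dashed line is the median of all tested genes (-0.08). Medians were lowest for the 10 feedback genes (-0.87), ERK-responsive transcription (-0.86) and other MAP kinase phosphatases (-0.84), and nearest to the dashed line for other feedback regulators (-0.15).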

How the data were processed

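RNA-seq of Hep-G2 cells gave 6 libraries, 3 per group, grouped by the sample labels. The deposited expression table holds the authors' FPKM values, 1 column a library. The submitters' processing notes name HISAT2 2.0.5, featureCounts and GRCh38. The strandedness of counting was not given in the sources used here, so reads of a member and of an overlapping antisense gene may not be told apart. All 58735 gene positions equalled GENCODE 29. Multiplying FPKM by gene length gave multiples of a fixed unit for 100.0% of values (tolerance 0.01 of a read), from which reads were recovered.

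The 13074 genes that reached 1 FPKM in 3 or more libraries were tested with limma 3.58.1 in R 4.3.3, eBayes with intensity trend, on log2(FPKM + 1), without covariates. Two-sided p-values were adjusted after Benjamini and Hochberg over all tested genes. The thresholds were an adjusted p of 0.05 and, for the stricter call, an absolute log2 change of 1. Ratios were compared by exact permutation over libraries. Alternatives were no filter, a filter on the mean (0.1 FPKM), a pseudocount of 0.1, median-ratio, TPM, quantile and read-total scaling, a GC correction (lowess span 0.3), voom on recovered reads, robust eBayes, no trend, a replicate block, and each library left out in turn. The fit was tested on simulated data. The reads carry no molecular identifiers.

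Sequences came from RefSeq (GRCh38.p14) and GENCODE 29, taking the longest annotated 3′ UTR of each gene if it had at least 50 bases, with Python 3.11.15, numpy 2.4.6, pandas 2.3.3 and matplotlib 3.10.9. Named genes were all 10 members, CLGN, list genes past both thresholds, the 3 with the smallest adjusted p among other feedback regulators and cascade genes, and the 3 genes most correlated with DUSP1. DUSP2, DUSP10, NF1, PEBP1, NRAS, MAP2K1, MAP2K2 and the antisense genes were named after their values were seen. A few genes that the rule would name are left out here. The members and lists were chosen with earlier results of these data known.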

Additional observations from a re-analysis of the deposited data

How the results depend on the processing

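Of the 10 members, 8 kept direction and call in all 12 alternative settings and with each of the 6 libraries left out. The count of members higher at adjusted p, 1 as reported, was 0 without a filter and 0 after GC correction, and 0 to 1 when a library was left out, all through SPRED1. The count of members lower, 9 as reported, was 8 under TPM, read totals and GC correction, and 8 to 9 when a library was left out, through DUSP4. Members past both thresholds numbered 3 to 5 over the settings and 4 with any library left out. No member changed direction. DUSP4 missed the threshold at -0.20 (TPM), -0.11 (read totals), -0.08 (GC correction) and -0.21 (without sh-CLGN replicate 1). SPRED1 missed it at 0.26 without a filter and at 0.10 after GC correction. Over the 5 libraries whose removal ended its call, SPRED1 stood at 0.19 to 0.26. Without a filter its log2 change and SE (0.084) stayed as reported, while 33474 genes entered the variance fit and the adjustment in place of 13074. The cause of the lost calls was not tested in any setting. With 2 libraries left in a group, the variance is still pooled over groups.

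The labels do not say whether libraries were paired by replicate number. Deviations from the group means correlated at -0.02, -0.05 and -0.15 between libraries of equal number and at -0.08 to 0.11 between the others. No pairing by number showed in these values, which cannot exclude it. With that number as a block the fit left 9 members lower, 1 higher and 4 past both thresholds, and called 8038 genes in place of 8598. DUSP4 and SPRED1 had 272 to 648 reads per library, where IER3 had 192 to 610, DUSP1 529 to 1897 and PHLDA1 1042 to 2032. The part of read depth in the lost calls was not tested.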

Other observations

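SPRY4-AS1, an antisense RNA at the SPRY4 locus (ENSG00000231185, chromosome 5, 142325293 to 142672001, plus strand), was at 1.65 ± 0.179 FPKM in sh-NC and 0.591 ± 0.0243 FPKM in sh-CLGN (SD, n = 3), from 17 to 46 reads per library. Its log2 change was -0.73 (SE 0.092, limma adjusted p = 2.45e-04), and its libraries did not overlap between the groups. SPRY4-AS1 reached 1 FPKM only in sh-NC libraries (1.46 to 1.82 FPKM, against 0.573 to 0.618 in sh-CLGN). The filter of at least 1 FPKM in 3 libraries admits such a gene only as lower and without overlap. Its direction and lack of overlap are thus not independent of the filter. The antisense gene AC022217.3, which overlaps DUSP1, had 1 to 7 reads per library against 529 to 1897 for DUSP1, and AC024909.2, which overlaps DUSP6, had 9 to 14 against 958 to 2332. The tested genes whose pattern over the 6 libraries was most like that of DUSP1 were IGSF3, MARS and PHACTR4, each with a Pearson r of 0.9995. The 6 points fall into the 2 groups, so r mostly reflects the difference between them, and 842 tested genes reached an r of 0.99 or more with DUSP1.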
